A study of Rattus norvegicus with 9 samples.

Results

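The potassium channel genes are the genes of the rat whose symbols begin with Kcn and that code for the pores, the modifying subunits and the helper subunits of potassium channels. They were taken from the deposited gene table as the genes typed as mRNA, named Kcn followed by a letter, with at least 90 reads summed over the 9 rats. This rule gave 75 of the 94 Kcn mRNAs among the 37209 genes of the table. The other 19 fell below the limit of reads, and 5 of them, Kcna10, Kcne1, Kcns2, Kcnk18 and Kcnmb3, had 0 reads. The members with the fewest reads were Kcne1l with 183, Kcne2 with 218 and Kcnip2 with 223, and just below the limit stood Kcnn4 with 81 and Kcnk5 with 67. The rule used no difference between groups. A gene with few reads could still pass it through the groups where it was high, as with Kcnj13 below.

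RNA depleted of rRNA was sequenced from the frontal cortex of 9 male Wistar rats of 14 weeks, 3 in each of the groups Control, MS and MS+EA. Control rats (A1, A2 and A6) grew up undisturbed with their mothers until weaning. MS rats (B3, B4 and B6) underwent daily maternal separation, a model of early life stress, from postnatal day 1 to postnatal day 21. MS+EA rats (C3, C10 and C16) underwent the same separation and, as adults, electroacupuncture (EA), in which a current is passed through needles, here at the points GV20 and GV29 every other day from postnatal day 61 to postnatal day 81. Control and MS rats were given the anaesthesia of the sessions alone. No sham EA group was among the sequenced samples, so the current cannot be told apart from the needling. Separation was applied to whole litters, and the litters of the rats were not given, so rats of the same litter may not be independent. The p-values set the differences between groups against the spread between rats and treat each rat as independent.

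Potassium channels let potassium ions leave or enter a cell down their gradient and set the resting potential, the shape of the action potential and the rate of firing of neurons. A channel is built from several pore subunits, either copies of a single subunit or a mixture of related ones, and helper subunits change its gating and its place in the membrane. In the cortex, Kv channels repolarize axons and dendrites, the M current restrains repetitive firing, inward rectifiers serve receptors and glia, and two-pore domain channels carry leak current.

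Among the members 54 code for pores, 8 for silent subunits that modify Kv2 pores and 13 for helper or regulatory proteins. Potassium channel reads made up between 0.677% and 0.745% of all counts of a rat. By class, the Kv7 genes held 17% of these reads, the Kv1 genes 16.3%, the inward rectifiers 14.6%, the genes of the EAG, ERG and ELK class 11.3% and the Kv beta subunits 11.1%. The 6 calcium- or sodium-activated channels held 7.89%, the Kv3 genes 4.9%, the silent subunits 4.4%, the Kv2 genes 3.73%, the two-pore domain genes 3.37%, the Kv4 genes 2.65% and the KChIPs 2.07%. The BK beta subunits, the KCNE subunits and Kcnrg each held under 1%. These are shares of reads, which also depend on transcript length, and levels were not compared between genes. The KChIP share includes Kcnip4, which had 592 reads over the 9 rats. How reads were assigned to genes is not given in the sources used here, and its part in that share was not tested. Reads per member ranged from 183 to 120939 (Kcna2), with a median of 5189. All 75 members passed the filter on low counts and were tested among 16837 genes.

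Total counts per rat were between 12479905 and 19007907, and the highest total of MS+EA (14913736) was below the lowest of the other groups (16106381). The share of counts on lncRNA was 0.976% to 1.13% in MS+EA and at most 0.964% in the other rats. Snap25, a synaptic protein of neurons, had between 1991 and 2742 CPM, counts scaled to the size of the library, and the 4 choroid plexus markers together had at most 11.8 CPM. Snap25 is a pan-neuronal marker and cannot tell the labelled frontal cortex from other brain regions. The striatal neuron markers together had 200 to 228 CPM per rat and the thalamic neuron markers 41.8 to 63.0 CPM. In bulk tissue, fewer cells of a type and less RNA per cell cannot be told apart.

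None of the 75 members passed both thresholds, an adjusted p under 0.05 and a change above 1.5-fold, in any of the 3 comparisons by edgeR's quasi-likelihood test with Benjamini-Hochberg adjustment over all genes. The background rate was 0.0238% of the genes tested in MS against Control, 0.0178% in MS+EA against MS and 1.37% in MS+EA against Control. DESeq2 and limma-trend called 0 members as well. The 95% confidence interval of the fold change lay wholly within 1.5-fold in either direction for 52 members in MS against Control, 53 in MS+EA against MS and 51 in MS+EA against Control. For those genes a change above 1.5-fold lay outside the interval, whereas for the rest of the members it did not. The median standard error of a member was 0.115 to 0.117 on the log2 scale, and that of all genes 0.144 to 0.145. The comparisons share rats (MS rats enter 2 of them, as do Control and MS+EA rats), and their values are given side by side only.

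**Figure D1:**
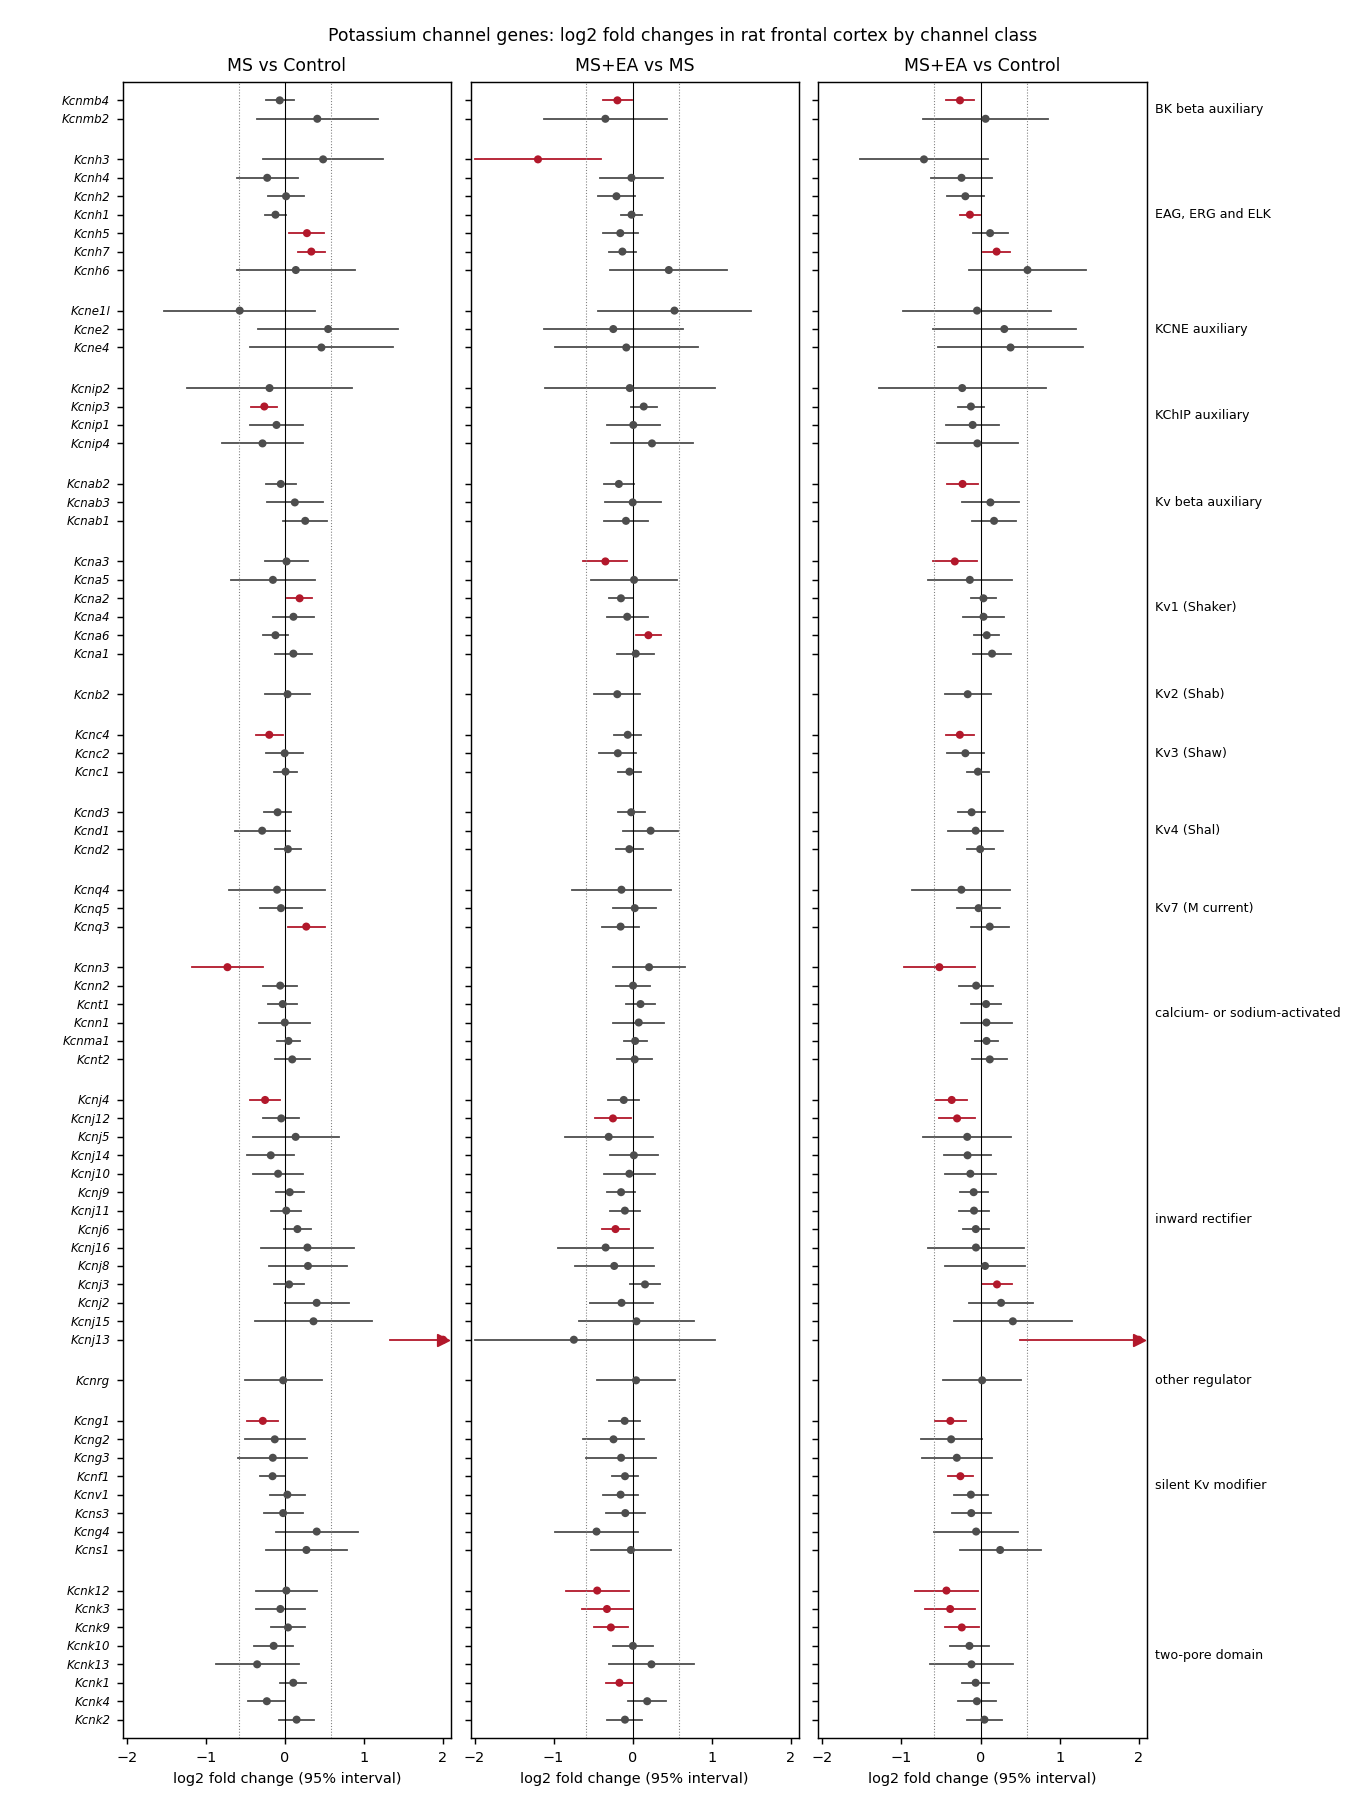
Log2 fold changes of 72 potassium channel genes, grouped by channel class, in MS against Control, MS+EA against MS and MS+EA against Control. Points are the fitted values with 95% confidence intervals, red marks an unadjusted p under 0.05, the dotted lines stand at 1.5-fold, and the axis ends at 2 on either side, which cuts off Kcnj13 (arrow) and parts of its intervals. Nearly all points lie between the dotted lines, and in MS+EA against MS 49 of 72 lie below 0.

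MS against Control asks what maternal separation leaves in the adult cortex. The log2 fold change was above 0 for 40 of 75 members, 53.3% against a background of 49.7% of all genes, with a median of 0.02 beside −0.00 over all genes. At an unadjusted p under 0.05, 5 members (6.67%) were higher, where the background is 7.06%, and 5 (6.67%) were lower, where it is 3.55%. The higher ones were Kcnh7, Kcnj13, Kcnh5, Kcna2 and Kcnq3, and the lower ones Kcnn3, Kcnip3, Kcng1, Kcnj4 and Kcnc4. Kcnj13 passed the limit of reads mostly through MS and MS+EA rats. All MS rats were above all Control rats for 6 members (8%, background 10%) and below them for 8 (10.7%, background 7.53%). The smallest adjusted p was 0.146, that of Kcnh7. Of the 8 layer 6 neuron markers 7 were lower (median −0.36), with sums of 246 to 286 CPM in Control and 219 to 231 in MS. The 4 endothelial and 4 mural markers were all higher (medians 0.24 and 0.56). Endothelial sums were 83.9 to 100.1 and 105 to 116 CPM, and mural sums 50.4 to 53.2 and 59.0 to 93.4 CPM. The 6 oligodendrocyte markers were all lower (median −0.23). Sums of all other marker lists overlapped. The part of these markers in the channel values was not tested.

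MS+EA against MS asks what EA does after separation. Of the members 23 (30.7%) were above 0 against 50.1% of all genes, and the median was −0.09 beside 0.00. Only Kcna6 was higher at an unadjusted p under 0.05 (1.33%, background 6.01%), and 10 members were lower (13.3%, background 6.42%). Among the lower genes were Kcnh3, Kcnj6, Kcnk9, Kcna3, Kcnk12, Kcnj12, Kcnmb4, Kcnk3 and Kcnk1. All MS+EA rats lay above all MS rats for 1 member (1.33%, background 8.27%) and below them for 11 (14.7%, background 9.6%). With total counts in place of TMM scaling, 33 members were above 0 and the median was −0.05, beside 0.04 over all genes. At that p 3 members were higher and 5 lower, beside 1518 and 647 of the 16837 genes. The main fit had 1012 and 1081 such genes. The count of 10 was 4 without MS rat B4 or without MS+EA rat C16, 17 without C10, and 6 when only the 6 rats compared were fitted. Lower genes among all tested were 628 of 17149 without B4 and 905 of 17137 without C16. They were 1107 of 17168 without C10 and 845 of 16363 with only those 6 rats. The summed CPM of the 5 pan-neuronal markers was 5847 to 6346 in MS and 4877 to 6119 in MS+EA, and all 5 were lower in MS+EA with a median log2 fold change of −0.16. That list holds Slc17a7, which marks glutamatergic neurons rather than all neurons. The 6 oligodendrocyte markers were all higher in MS+EA (median 0.44), and their summed CPM was 1830 to 2907 in MS and 2045 to 4176 in MS+EA. Of the 8 layer 6 neuron markers 7 were higher (median 0.44), with sums of 219 to 231 and 229 to 254 CPM. C3 had both the lowest pan-neuronal sum (4877) and the highest oligodendrocyte sum (4176) of the 9 rats. The depth of the MS+EA rats was lower and their lncRNA share higher, as given above. The part of these measures in the lower channel values was not tested.

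MS+EA against Control compares rats that differ in both separation and treatment. The log2 fold change was above 0 for 26 members (34.7%, background 50.9%) and the median was −0.06 beside 0.01 over all genes. At an unadjusted p under 0.05, 3 members (4%, background 11.9%) were higher and 13 (17.3%, background 10.6%) were lower. Kcnj13 was among the higher ones here too. No member had all MS+EA rats above all Control rats, where the background is 13%, and 11 (14.7%, background 12.9%) had all of them below. With no threshold on the fold change, Kcng1 and Kcnj4 passed the adjusted p (2.67% of the members, background 5.4%). From the pan-neuronal list, Slc17a7, a vesicular glutamate transporter of glutamatergic neurons, and Tubb3, a neuronal tubulin, also passed that p in this comparison. Their log2 fold changes were -0.30 (SE 0.0629, adjusted p = 0.0207) and -0.32 (SE 0.0701, adjusted p = 0.0252) by edgeR. Of the 5 pan-neuronal markers 4 were lower and 1 was higher, with a median of −0.20, and the summed CPM of the list overlapped, at 5740 to 5867 in Control and 4877 to 6119 in MS+EA. The part of these markers in the values of Kcng1 and Kcnj4 was not tested.

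Promoters, taken as the 250 bases before the gene start in RefSeq's annotation of GRCr8, were on hand for 50 of the 75 members, among them Kcnh7, Kcnip3 and Kcnj4, which are taken up below and stood near the head of the lists above. Motif letters were searched on both strands and are shown in capitals, 5′ to 3′ on the strand of the gene. The Kcnh7 promoter (chr3:68230672-68230921, minus strand) holds 3 GC boxes (GGGCGG) and 1 CCAAT box, the Kcnip3 promoter (chr3:135195411-135195660, minus strand) 1 GC box, and the Kcnj4 promoter (chr7:112954548-112954797, minus strand) 1 copy of TGACG, the core of the cAMP response element.
Kcnh7: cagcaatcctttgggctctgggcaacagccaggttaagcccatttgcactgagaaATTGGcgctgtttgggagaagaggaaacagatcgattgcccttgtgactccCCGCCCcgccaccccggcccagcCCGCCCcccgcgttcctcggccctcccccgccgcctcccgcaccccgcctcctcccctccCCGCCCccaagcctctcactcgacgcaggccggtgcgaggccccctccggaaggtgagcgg
Kcnip3: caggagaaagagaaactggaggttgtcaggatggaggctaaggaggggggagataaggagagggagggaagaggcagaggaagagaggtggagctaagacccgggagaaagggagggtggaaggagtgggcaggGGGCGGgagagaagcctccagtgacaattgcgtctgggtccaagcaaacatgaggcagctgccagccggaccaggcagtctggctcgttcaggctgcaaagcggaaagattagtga
Kcnj4: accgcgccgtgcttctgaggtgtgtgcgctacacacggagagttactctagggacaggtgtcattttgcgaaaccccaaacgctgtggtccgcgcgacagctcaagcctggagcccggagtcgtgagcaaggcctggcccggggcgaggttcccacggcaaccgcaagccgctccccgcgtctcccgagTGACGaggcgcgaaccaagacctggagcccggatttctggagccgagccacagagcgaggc

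The GC content of the 50 member promoters was 33.6% to 84.4%, with a median of 64.4% against 52% over all 27457 promoters of the table. A GC box was present in 52% of the member promoters and 32.4% of all, TATAAA in 2% and 13.1%, and CCAAT in 24% and 34.3%. TGACG was present in 18% of the member promoters and 19% of all, and the full TGACGTCA, which contains it, in 0 of 50 and 1.7% of all. A match describes letters only, and no test was run on these shares.

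Among the pore genes of voltage-gated channels, Kcnh7 stood first in MS against Control. It codes for an ERG-type subunit, whose current slows firing during sustained depolarization. In the order A1, A2 and A6, then B3, B4 and B6, then C3, C10 and C16, which is kept below, Kcnh7 had 404, 367 and 379.9 CPM in Control, 487, 475 and 488 CPM in MS and 423, 498 and 403 CPM in MS+EA. All MS rats were above all Control rats, while the MS+EA rats reached from just under the highest Control rat to above every MS rat. The group means were 384 ± 18.7, 483 ± 6.98 and 441 ± 50.04 CPM (SD, n = 3 rats each). The log2 fold change was 0.33 (SE 0.0790, 95% confidence interval 0.16 to 0.50) in MS against Control, with an adjusted p of 0.146 by edgeR. By DESeq2 the adjusted p of Kcnh7 in this comparison was 0.0149, with the change still under 1.5-fold, and over the alternatives it ranged up to 0.413, without A2. Against MS, MS+EA stood at -0.13 (SE 0.0789, adjusted p = 0.52). Kcnh7 shares its span with the protein-coding gene Gca (308 reads over the 9 rats, beside 62333 for Kcnh7) in the RefSeq annotation of GRCr8, and the strand setting of the counts is not given in the sources used here.

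Kcnh5, which codes for an EAG-type subunit, had 77.3, 73.4 and 70.9 CPM in Control, 88.6, 88.7 and 91.5 CPM in MS and 89.6, 86.4 and 64.8 CPM in MS+EA. The MS rats were again above the Control rats, and C16 was below every other rat. The difference between MS and Control was 0.28 (SE 0.102, adjusted p = 0.338). Kcnh1, the other EAG gene, had 241, 232 and 226 CPM in Control, 214, 213 and 216 CPM in MS and 220.4, 203 and 213 CPM in MS+EA. Here both MS and MS+EA were below Control with no overlap (-0.12 and -0.13, adjusted p = 0.497 and 0.201). Kcnh3, an ELK gene, had few counts, with 58, 35 and 61 reads in Control, 73, 84 and 52 in MS and 30, 38 and 10 in MS+EA. Its MS+EA rats were all below its MS rats, and the log2 fold change of -1.20 (SE 0.369, adjusted p = 0.254) was the largest drop of a member in that comparison. Kcnh3 likewise shares its span with a protein-coding gene, Mcrs1.

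The Kv1 genes code for Shaker-type pores that gate axons and terminals. Kcna2, which had more reads than any other member, had 839.5, 779 and 783 CPM in Control, 965, 879 and 888 CPM in MS and 782, 888 and 793 CPM in MS+EA. The lowest MS rat (B4) was above the highest Control rat (A1), and 2 of the 3 MS+EA rats were at Control values. MS against Control gave 0.19 (SE 0.0713, adjusted p = 0.371) and MS+EA against MS -0.15 (SE 0.0713, adjusted p = 0.418). Kcna6 had 159, 168 and 168 CPM in Control, 162, 137 and 158 CPM in MS and 175, 164 and 184 CPM in MS+EA, so that every MS+EA rat was above every MS rat. Its difference between them was 0.20 (SE 0.0745, adjusted p = 0.321). Kcna3 went the other way with 14.1, 17.7 and 17.3 CPM in Control, 14.7, 17.4 and 17.7 CPM in MS and 13.6, 13.3 and 12.2 CPM in MS+EA, all MS+EA rats being below the rest, at -0.35 (SE 0.129, adjusted p = 0.32) against MS. Kcna1, Kcna4 and Kcna5 had log2 fold changes between -0.15 and 0.15 over the comparisons, with overlapping groups.

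Kcnq3 codes for a subunit of the M channel of cortical neurons. It had 254, 262 and 285 CPM in Control, 311, 305 and 349 CPM in MS and 259, 351 and 257 CPM in MS+EA. MS was above Control in all rats, and of the MS+EA rats C10 was the highest of all while C3 and C16 were within the Control range. The log2 fold change of MS against Control was 0.27 (SE 0.109, adjusted p = 0.4). Kcnq5, also of the Kv7 class, stood at -0.05, 0.03 and -0.03 in MS against Control, MS+EA against MS and MS+EA against Control.

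Of the genes for fast pores, Kcnc1 (Kv3.1, a channel of fast-spiking interneurons) and Kcnd2 (Kv4.2, the A-type pore of dendrites) had narrow intervals. In MS against Control the 95% confidence interval was -0.13 to 0.15 for Kcnc1 and -0.13 to 0.21 for Kcnd2 on the log2 scale. Kcnc1 had 111, 107 and 109.6 CPM in Control, 113, 105 and 112 CPM in MS and 113, 105 and 102 CPM in MS+EA. Kcnd2 had 50.4, 48.7 and 50.1 CPM in Control, 50.1, 51.6 and 51.5 CPM in MS and 54.4, 48.1 and 46.2 CPM in MS+EA. Their groups overlapped in every comparison. The span of Kcnd2 is shared with the protein-coding gene Kcnd2l1, and whether the genes share reads was not tested. Kcnd3 (Kv4.3) had 130.4, 140.3 and 132 CPM in Control, 114, 128 and 136 CPM in MS and 119, 133 and 121 CPM in MS+EA, also with overlap in every comparison. Kcnc4 (Kv3.4) stood apart from these with 88.8, 82.7 and 83.3 CPM in Control, 70.6, 76.0 and 75.6 CPM in MS and 66.3, 78.9 and 67.3 CPM in MS+EA, and its Control rats were above all rats of both other groups. Its difference was -0.20 (SE 0.0792, adjusted p = 0.391) in MS and -0.26 (SE 0.0797, adjusted p = 0.0732) in MS+EA against Control.

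The silent subunits form no channel alone and join Kv2 pores, whose current they reshape. All 8 had a log2 fold change below 0 in MS+EA against MS, with a median of −0.12, and 7 of 8 did in MS+EA against Control, with a median of −0.19. None of the 8 had an unadjusted p under 0.05 in MS+EA against MS. The count of 8 was 7 with total counts in place of TMM and 7 without B3, B4, C3, C10 or C16. Against Control the count of 7 was 6 without A1 or C10 and 8 without C3. Kcng1 (Kv6.1) had 51.3, 52.9 and 63.9 CPM in Control, 47.1, 43.7 and 47.5 CPM in MS and 43.4, 43.7 and 41.8 CPM in MS+EA. Every MS and MS+EA rat was below every Control rat, and A6 was the highest rat. The means were 56.0 ± 6.83, 46.1 ± 2.08 and 43.0 ± 1.003 CPM. MS+EA against Control gave -0.38 (SE 0.0914, 95% confidence interval -0.58 to -0.18), a fold of 0.767 with an adjusted p of 0.0348 by edgeR, and MS against Control gave -0.28 (SE 0.0906, adjusted p = 0.276). Over the alternatives the adjusted p of Kcng1 in MS+EA against Control ranged from 0.00591 with DESeq2 to 0.118 without A6, and it was under 0.05 in 7 of 14 settings. Kcnf1 (Kv5.1) had 103, 116 and 102 CPM in Control, 90.3, 96.8 and 100.4 CPM in MS and 86.7, 93.1 and 88.7 CPM in MS+EA, with Control above both other groups, at -0.25 (SE 0.0732, adjusted p = 0.0617) in MS+EA. Kcnv1 had 106, 105 and 98.3 CPM in Control, 90.8, 117 and 108 CPM in MS and 87.7, 107 and 88.9 CPM in MS+EA, and its groups overlapped.

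**Figure D2:**
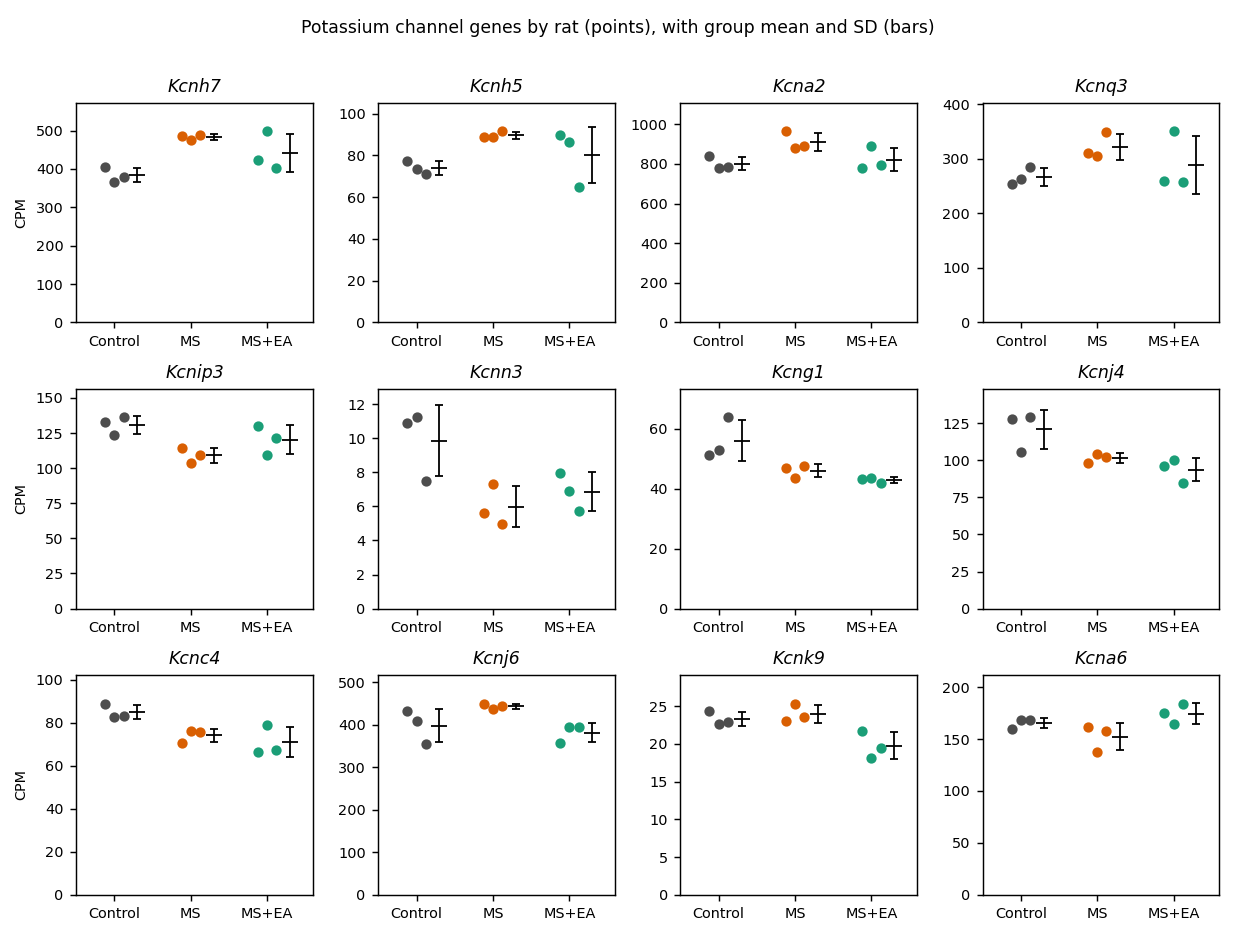
CPM of 12 potassium channel genes in each rat, with bars for the mean and SD of the 3 rats of a group (Control, MS and MS+EA). Kcnh7, Kcnh5, Kcna2 and Kcnq3 lie higher in MS than in Control, Kcnip3, Kcnn3, Kcng1, Kcnj4 and Kcnc4 lie lower, and in MS+EA Kcnj6 and Kcnk9 lie below MS and Kcna6 above it.

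Helper subunits do not conduct. KChIPs are calcium sensors that bind Kv4 pores, and Kcnip3 also codes for the transcriptional repressor DREAM. Kcnip3 had 133, 123 and 136 CPM in Control, 114, 104 and 109 CPM in MS and 129.7, 109 and 121 CPM in MS+EA. The MS rats were below the Control rats without overlap, and the MS+EA rats spanned both. MS against Control gave -0.26 (SE 0.0764, adjusted p = 0.218), and MS+EA against MS 0.14 (SE 0.0768, adjusted p = 0.478). All 4 KChIP genes were below 0 in MS against Control, and 3 of 4 were above 0 in MS+EA against MS, or 4 of 4 with total counts. These counts moved with single rats. In MS against Control 3 of 4 were below 0 without A2 or without B6, and in MS+EA against MS 4 of 4 were above 0 without B4 or without C16 and 2 of 4 without C10, where the median went from 0.07 to −0.03. Kcnd1, Kcnd2 and Kcnd3, which code for their pores, stood at -0.29 (SE 0.160, adjusted p = 0.542), 0.04 and -0.09 in MS against Control. In MS+EA against MS these pore genes stood at 0.23 (SE 0.162, adjusted p = 0.594), -0.04 and -0.02. Kcnab2, the Kv beta subunit with the most reads, had 790.5, 651 and 749 CPM in Control, 771, 677 and 665 CPM in MS and 639.7, 575 and 656 CPM in MS+EA, and MS+EA against Control was -0.23 (SE 0.0878, adjusted p = 0.145) with overlapping groups. Its span is shared with the protein-coding genes Nphp4 and LOC134487046, and whether the genes share reads was not tested. Kcne4, a KCNE subunit, had 19, 19 and 32 reads in Control, 15, 45 and 34 in MS and 22, 26 and 27 in MS+EA, and its interval in MS against Control was -0.44 to 1.37. Kcnrg, a cytoplasmic regulator, had 68, 68 and 42 reads in Control, 60, 56 and 54 in MS and 54, 46 and 47 in MS+EA, and its interval was -0.51 to 0.46. Both intervals are wide beside those of the abundant genes.

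Inward rectifiers pass potassium more easily into the cell than out of it. Kcnj4 (Kir2.3), a classical rectifier of forebrain neurons, had 128, 106 and 129 CPM in Control, 97.9, 104 and 102 CPM in MS and 96.5, 100.1 and 84.8 CPM in MS+EA. Both MS and MS+EA were below Control in all rats, and the MS+EA group overlapped with MS. The means were 121 ± 13.3, 102 ± 3.32 and 93.8 ± 8.00 CPM. Its log2 fold change was -0.25 (SE 0.0883, adjusted p = 0.31) in MS and -0.36 (SE 0.0888) in MS+EA against Control, the latter a fold of 0.776 with an adjusted p of 0.0363 by edgeR. Over the alternatives that p ranged from 0.00479 with DESeq2 to 0.153 without A1, and it was under 0.05 in 8 of 14 settings. Kcnj12 (Kir2.2) had 53.0, 51.0 and 53.1 CPM in Control, 48.1, 57.0 and 47.1 CPM in MS and 40.7, 49.3 and 37.8 CPM in MS+EA, at -0.25 (SE 0.106, adjusted p = 0.361) against MS and -0.30 (SE 0.106, adjusted p = 0.118) against Control.

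Kcnj3, Kcnj6 and Kcnj9 code for the GIRK subunits, which open when G-protein coupled receptors are active. Kcnj6 (GIRK2) had 431, 408 and 354 CPM in Control, 449, 437 and 444 CPM in MS and 356, 394 and 393 CPM in MS+EA. MS was above Control without overlap, and MS+EA was below MS without overlap and within the range of Control. Its values were 0.16 (SE 0.0768, adjusted p = 0.49) and -0.22 (SE 0.0769, adjusted p = 0.3) in MS against Control and MS+EA against MS. Kcnj3 (GIRK1) had 117, 98.8 and 103 CPM in Control, 103, 112 and 116 CPM in MS and 112, 136 and 121 CPM in MS+EA, and MS+EA against Control was 0.21 (SE 0.0881, adjusted p = 0.186) with overlapping groups. Kcnj9 (GIRK3) stood at -0.15 (SE 0.0810, adjusted p = 0.474) in MS+EA against MS. Its span is shared with the protein-coding gene Igsf8, which stood at −0.20 (SE 0.0651, adjusted p = 0.274) there, and whether the genes share reads was not tested.

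The glial and vascular rectifiers had wider intervals. Kcnj10 (Kir4.1, the potassium buffer of astrocytes) had 137, 107 and 119 CPM in Control, 134, 105 and 103 CPM in MS and 112, 87.0 and 134 CPM in MS+EA. Kcnj16, its partner Kir5.1, had 16.2, 13.9 and 8.21 CPM in Control, 17.6, 10.6 and 18.6 CPM in MS and 16.7, 9.52 and 10.7 CPM in MS+EA. Kcnj8 (Kir6.1, a pore of mural cells) had 5.41, 4.02 and 3.48 CPM in Control, 6.82, 4.50 and 4.51 CPM in MS and 4.65, 4.22 and 4.61 CPM in MS+EA. All these groups overlapped in each comparison. The 95% confidence intervals in MS against Control were -0.40 to 0.23, -0.31 to 0.88 and -0.20 to 0.78 in that order.

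Kcnj13 (Kir7.1), known from the choroid plexus and retinal pigment epithelium, had the largest fold change of any member and few reads. It had 13, 0 and 2 reads in Control, 11, 112 and 44 in MS and 46, 5 and 33 in MS+EA. Most of the reads that put it over the limit for members were thus those of MS and MS+EA. Its fold changes use the same reads, so its place among the members does not bear on them. The groups overlapped: B3 had fewer reads than A1, and C10 was as low as Control rats, while B4 alone held 112 of the 266 reads. The log2 fold change was 3.53 (SE 1.02, 95% confidence interval 1.33 to 5.74, adjusted p = 0.209) in MS against Control and 2.79 (SE 1.06, adjusted p = 0.14) in MS+EA against Control. Without B4 the former was 2.48 with an adjusted p of 0.63, and over all settings that p ranged from 0.00149 to 0.63. Under a filter of at least 1 read it passed both thresholds in MS and MS+EA against Control, and a filter of at least 10 reads in every rat removed it.

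Of the choroid plexus markers, Ttr, the thyroxine carrier of that epithelium, had 21, 32 and 25 reads in Control, 12, 146 and 37 in MS and 17, 7 and 9 in MS+EA, with B4 highest. Kl had 7, 10 and 6 reads in Control, 12, 25 and 18 in MS and 12, 8 and 7 in MS+EA. Clic6 had 0, 4 and 0 reads in Control, 4, 13 and 2 in MS and 8, 0 and 0 in MS+EA. Folr1, a folate receptor, was at or near 0 in most rats, with 7, 4 and 0 reads in Control, 0, 4 and 1 in MS and 1, 1 and 0 in MS+EA. Together the 4 markers had 1.87 to 3.05 CPM in Control, 1.63 to 11.8 CPM in MS and 1.07 to 2.64 CPM in MS+EA. B4 was thus high in both Kcnj13 and Ttr, whereas C3 and C16, with 3.19 and 2.62 CPM of Kcnj13, were within or below the Control range of the summed markers. Acta2, a contractile protein of mural cells, had 177, 146 and 129 reads in Control, 225, 706 and 201 in MS and 221, 147 and 161 in MS+EA, again with B4 highest. By reads, C3 was above every Control rat for Kl, Clic6 and Acta2 but not for Ttr or Folr1. C16 was above every Control rat for none of these genes. The part of these cells in the value of Kcnj13 was not tested. The gene lies within the span of Gigyf2 in the RefSeq annotation, and Gigyf2 had 92.9 to 114 CPM.

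**Figure D3:**
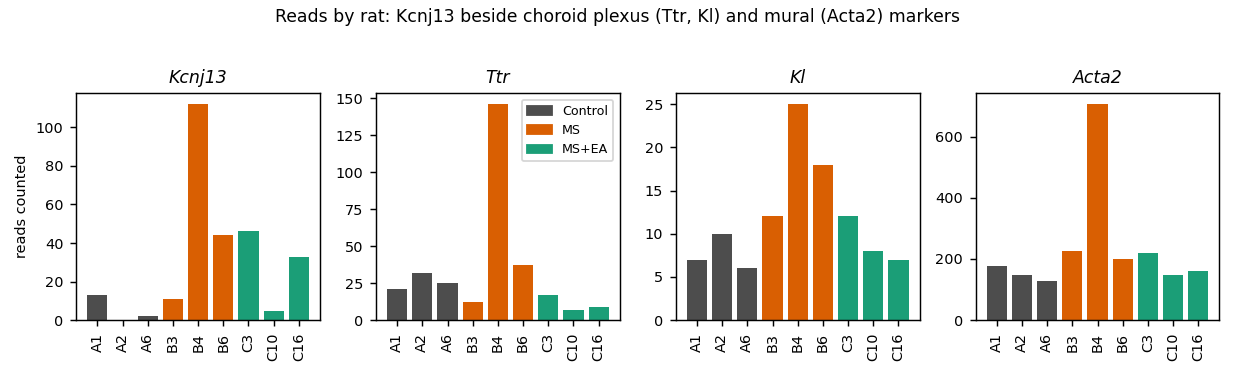
Kcnj13 in each rat beside choroid plexus and mural markers. The MS rat B4 is the highest rat for Kcnj13, Ttr and Acta2, and 2 of the 3 MS+EA rats (C3 and C16) lie above all Control rats for Kcnj13 but not for Ttr. C3 also lies above all Control rats for Kl and Acta2, and C16 does not.

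Two-pore domain genes code for leak channels open at rest. In MS+EA against MS, 4 of the 8 (Kcnk1, Kcnk3, Kcnk9 and Kcnk12) were lower at an unadjusted p under 0.05 and none was higher. The background for lower genes is the 6.42% above. The count of 4 was 2 with total counts, 3 without C3, 2 without B3, B6, C10 or C16, and 1 without B4. At that p 1 gene of the class was higher without B3 and 1 without C16. The counts over all genes also moved with the setting. Kcnk9 (TASK-3) had 24.3, 22.7 and 22.9 CPM in Control, 23.0, 25.3 and 23.5 CPM in MS and 21.6, 18.2 and 19.5 CPM in MS+EA, and Kcnk3 (TASK-1) had 8.72, 9.02 and 8.83 CPM in Control, 8.63, 7.69 and 9.20 CPM in MS and 5.97, 7.17 and 7.23 CPM in MS+EA. For both genes all MS+EA rats were below all other rats. The log2 fold changes of MS+EA against MS were -0.28 (SE 0.100, adjusted p = 0.316) and -0.33 (SE 0.145, adjusted p = 0.385). Kcnk12 had 6.37, 4.76 and 5.41 CPM in Control, 5.60, 5.94 and 5.23 CPM in MS and 4.44, 4.15 and 3.66 CPM in MS+EA, again with MS+EA lowest, at -0.45 (SE 0.183, adjusted p = 0.345). Kcnk1 (TWIK-1) had 82.4, 81.2 and 82.0 CPM in Control, 79.7, 92.6 and 92.2 CPM in MS and 80.5, 81.8 and 72.8 CPM in MS+EA, with overlap, at -0.17 (SE 0.0769, adjusted p = 0.396). In MS against Control none of the 8 had an unadjusted p under 0.05, and their log2 fold changes were between −0.35 and 0.15.

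Calcium- and sodium-activated channels follow a spike or burst with a hyperpolarization. Kcnn3 (SK3) had 204, 184 and 120 reads in Control, 96, 117 and 83 in MS and 115, 103 and 72 in MS+EA. In CPM these were 10.9, 11.2 and 7.46, then 5.60, 7.32 and 4.99, then 7.98, 6.90 and 5.72. The Control rats were above the MS rats without overlap, though A6 was close to B4, and the MS+EA rats spanned the gap. MS against Control was -0.73 (SE 0.206, 95% confidence interval -1.17 to -0.28, adjusted p = 0.197), and MS+EA against Control was -0.52 (SE 0.206, adjusted p = 0.156). Under the filter of at least 1 read Kcnn3 passed both thresholds in MS against Control. Kcnn1 and Kcnn2, the other SK genes, stood at -0.00 and -0.06. All 6 genes of the class were above 0 in MS+EA against MS, by at most 0.21. This count of 6 was 4 without B4, 5 without B6 and 3 without C10. Kcnma1 (the BK pore) had 358, 367 and 389.5 CPM in Control, 383, 371 and 395 CPM in MS and 364, 410.2 and 399.5 CPM in MS+EA, and its interval in MS against Control was -0.10 to 0.19. Kcnmb4, the neuronal BK beta subunit, had 40.9, 44.4 and 43.6 CPM in Control, 43.3, 42.3 and 37.5 CPM in MS and 35.2, 37.0 and 35.4 CPM in MS+EA, with MS+EA below all other rats, at -0.19 (SE 0.0834, adjusted p = 0.369) against MS and -0.26 (SE 0.0833, adjusted p = 0.0868) against Control.

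Partner subunits were also compared as ratios of reads within a rat, which need no scaling between libraries. The 6 pairs were chosen after the values of the genes were seen, and of the 18 comparisons 5 had groups that did not overlap. Over all single genes, 10% were higher and 7.53% lower without overlap in MS against Control. The shares were 8.27% and 9.6% in MS+EA against MS, and 13% and 12.9% in MS+EA against Control. No such share was computed for ratios. A two-sided exact permutation test of 3 against 3 rats cannot go below 0.1, so that none could reach 0.05. The ratio of Kcnj6 to Kcnj3 was 3.69, 4.13 and 3.43 in Control, 4.37, 3.91 and 3.82 in MS and 3.18, 2.91 and 3.26 in MS+EA. The MS+EA rats were below every other rat, and the same held for Kcnj9 to Kcnj3, with means of 1.29 ± 0.157 in Control, 1.29 ± 0.110 in MS and 1.05 ± 0.0519 in MS+EA (SD, n = 3 rats each). The overlap of Kcnj9 with Igsf8 applies to the ratio of Kcnj9 to Kcnj3 too. Both of these ratios share the denominator Kcnj3, so they are not separate observations. Kcnj3 itself stood at 0.16 in MS+EA against MS and 0.21 in MS+EA against Control. Kcnmb4 to Kcnma1 had means of 0.116 ± 0.00476 in Control, 0.107 ± 0.0108 in MS and 0.0919 ± 0.00441 in MS+EA (SD, n = 3 rats each), and MS+EA was below Control without overlap. Kcnj16 to Kcnj10, Kcna2 to Kcna1 and Kcnab1 to Kcnab2 overlapped in all comparisons.

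**Figure D4:**
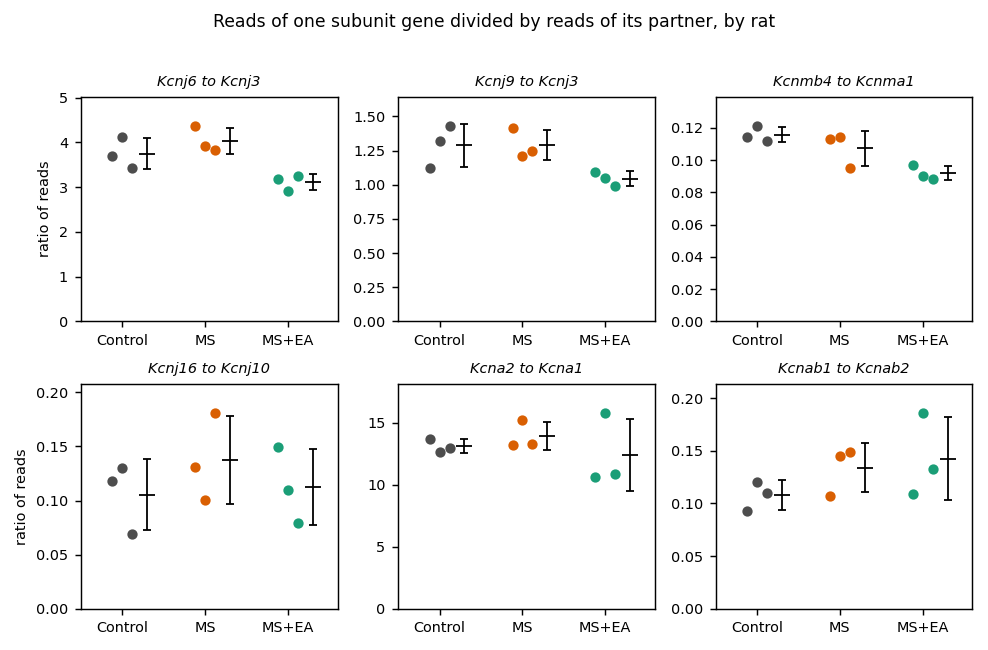
Ratios of reads between partner subunits in each rat, with the mean and SD of the 3 rats of each group. Kcnj6 to Kcnj3 and Kcnj9 to Kcnj3 lie lower in MS+EA than in the other groups, and Kcnmb4 to Kcnma1 lies lower in MS+EA than in Control.

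A list of 29 partners of potassium channels and related genes (calmodulins, the sulfonylurea receptors, anchoring proteins, HCN channels and others) held 26 tested genes, and 0 passed both thresholds by edgeR. The HCN genes code for channels of their own and not for subunits of potassium channels. At an unadjusted p under 0.05, 1 (3.85%, background 7.06%) was higher and 2 (7.69%, background 3.55%) were lower in MS against Control. The counts were 0 (background 6.01%) and 3 (11.5%, background 6.42%) in MS+EA against MS, and 0 (background 11.9%) and 6 (23.1%, background 10.6%) in MS+EA against Control. With no threshold on the fold change 2 genes of the list, Cntnap2 and Hcn4 (7.69%, background 5.4%), passed the adjusted p in MS+EA against Control. Calm2, a gene for calmodulin, which gates SK and Kv7 channels, had 344, 342 and 342 CPM in Control, 401, 420.0 and 405 CPM in MS and 327, 371 and 315 CPM in MS+EA. MS was above both other groups without overlap, at 0.25 (SE 0.0686, adjusted p = 0.186) against Control and -0.27 (SE 0.0687, adjusted p = 0.207) for MS+EA against MS. Hcn4, a pacemaker channel gene, had 9.53, 11.3 and 10.6 CPM in Control, 7.35, 9.01 and 8.48 CPM in MS and 7.01, 6.77 and 7.23 CPM in MS+EA, with Control highest. It stood at -0.58 (SE 0.142, adjusted p = 0.0363) in MS+EA against Control, under the threshold on fold change in size. Cntnap2, which holds Kv1 channels beside the node of Ranvier, had 59.9, 55.6 and 54.3 CPM in Control, 50.7, 52.8 and 53.8 CPM in MS and 42.9, 48.2 and 43.6 CPM in MS+EA, with MS+EA lowest, at -0.33 (SE 0.0780, adjusted p = 0.0322). In MS against Control Abcc8 was at -0.27 and Hcn4 at -0.34, and in MS+EA against MS Cntnap2 was at -0.22 and Vapb at -0.20. In MS+EA against Control, Vapb, Dpp6 and Hcn3 were at -0.17, -0.17 and -0.30.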

How the data were processed

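RNA of 9 rats, 3 per group, was sequenced after rRNA depletion. The authors mapped the reads to Rnor 6.0 with HISAT2 2.0.4, per the labels' processing notes, and deposited whole-number counts of reads per gene without normalization. The counting program, its strand setting and its treatment of reads with several locations are not given in the sources used here, so that counts of overlapping genes may be shared. In the RefSeq annotation of GRCr8, 33 of the 75 members overlap another gene, 8 of them a protein-coding one. The table held 0 further value columns and no fold changes or p-values of the authors.

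Counts were analysed with edgeR 4.0.16 in R 4.3.3. Genes were kept by filterByExpr with a minimum count of 10 (16837 genes), scaled by TMM, and fitted with a mean per group over all 9 rats. Each pair of groups was compared with the quasi-likelihood F test, and p-values were adjusted after Benjamini and Hochberg over all genes. Calls needed an adjusted p below 0.05 together with a change of more than 1.5-fold, the limits used in the study's methods. EBSeq, named there, was not run. CPM are TMM-scaled counts, standard errors were derived from the fold change and its F value, and 95% confidence intervals use the total degrees of freedom. Precision depends on the totals of 12479905 to 19007907 counts per rat and on the variation between rats. The biological coefficient of variation was 12.7%.

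Groups were taken from the labels. Values in every rat were given for members past both thresholds, for up to 6 per direction and comparison with the smallest unadjusted p under 0.05, for the member with the highest mean CPM of a class, and for a short list of well-known channels. Kcnh1 and Kcnk3, the pairs of subunits, the promoters printed and the counts of a class under other scalings or without a rat were added after the data were seen. The members, lists and pairs were chosen with earlier results of these data known. Alternatives were DESeq2 1.42.0, limma-trend (limma 3.58.1), RLE and total-count scaling, filters of at least 1 count and of at least 10 counts in every rat, fits of the 6 rats compared, no fold threshold, and omission of each rat. The scripts were tested on simulated data. All 75 members matched a RefSeq gene, 74 by symbol, and promoters were found for 50. Some items are not reported here, although they were kept in the fits and counts.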

Additional observations from a re-analysis of the deposited data

How the results depend on the processing

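No paired analysis was possible because the groups hold different animals and share at most 1 replicate number. Replicates are named here by the number in the rat's name, such as 16 for C16. Called members (0 in each comparison) became 2 in MS against Control with all genes of at least 1 count (Kcnn3 and Kcnj13), and in MS+EA against Control 2 with no fold threshold (Kcng1 and Kcnj4), 1 with at least 1 count (Kcnj13) and 1 without MS+EA replicate 10 (Kcng3). With 1 rat left out, the count called was otherwise 0.

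Members higher at an unadjusted p under 0.05 in MS against Control numbered 8 with at least 1 count and 3 to 8 with 1 rat left out (8 without Control replicate 1 or MS replicate 3, 3 without Control replicate 2 or 6). In MS+EA against MS they numbered 3 with total counts and 0 to 3 with 1 rat left out, 0 without MS replicate 4, 3 without MS replicate 3, and 2 without MS+EA replicate 3 or 10. In MS+EA against Control they numbered 0 without Control replicate 2 or 6 and 5 without Control replicate 1. Members lower at that p in MS against Control numbered 8 with total counts and 4 to 6 with 1 rat left out. Between MS+EA and MS they numbered 5 with total counts, 6 with only the 6 rats compared, 4 without MS replicate 4 or MS+EA replicate 16 and 17 without MS+EA replicate 10. Between MS+EA and Control they numbered 7 without MS+EA replicate 16, 8 without Control replicate 1 or 6, and 18 without MS+EA replicate 10. Counts over all genes moved as well. With 1 rat left out, 817 to 1393 of 17149 to 17180 genes were higher and 414 to 693 lower in MS against Control. They were 811 to 1067 and 628 to 1107 in MS+EA against MS, and 1499 to 2133 and 1277 to 1762 in MS+EA against Control. Total counts gave 1518 and 647 of 16837 in MS+EA against MS and 775 lower in MS against Control. The filter of at least 1 count gave 1459 higher of 25954 in MS against Control.

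The median log2 fold change in MS+EA against MS was −0.04584 with total counts, and −0.1284 (without MS+EA replicate 10) to −0.04778 (without MS+EA replicate 16) with 1 rat left out. Between MS+EA and Control it was −0.09698 to −0.02391 without those rats in that order, and in MS against Control −0.003252 to 0.02522. Over all genes the median in MS+EA against MS was 0.04323 with total counts. It was 0.001919 without MS+EA replicate 10 and −0.009222 without MS+EA replicate 16. The cause of these shifts was not tested.

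Of 1362 values of named members, 1359 stayed on their side of the thresholds, 3 passed them under the filter of at least 1 count, and 0 turned, where a change of sign was counted only if an unadjusted p was under 0.05. No member had passed in the main fit, so none could be lost, and these counts say little about stability. Other changes of sign did occur, such as Kcnj16 in MS+EA against Control, from −0.34 to 0.15 over the settings. Under at least 10 counts in every rat 72 members were fitted. Over all genes, DESeq2 called 70 in MS against Control and 37 in MS+EA against MS instead of 4 and 3, and the filter of at least 1 count gave 207, 72 and, in MS+EA against Control, 469 instead of 230. Fits of the 6 rats compared gave 11 and 1 in the first pair of comparisons, and the strict filter gave 0 in MS+EA against MS. With 3 rats per group, small differences could go undetected at this depth and variation between rats, in abundant genes as well as in genes with few reads.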
